A study of Mus musculus with 6 samples.

Results

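The 35 genes described here encode aminoacyl tRNA synthetases, the enzymes that attach each amino acid to its tRNA before protein synthesis. They were taken by gene name from the non-control spots of the arrays, older and newer symbols included, with no use of measured values. The set holds 20 cytosolic and 15 mitochondrial enzymes, out of 21953 named genes on the array. They are read by 71 of the 41174 non-control probes. A total of 33 genes had at least 1 probe well above background on all 3 arrays of a group and were tested, 18 cytosolic and 15 mitochondrial, out of 13758 genes tested in all.

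The RNA came from female mouse skeletal muscle satellite cells, the stem cells of muscle fibres, collected in proliferation. One group of 3 samples was homozygous for Magic-F1 (written +/+), an engineered factor derived from hepatocyte growth factor, and carries the word Omo in its titles. The 3 control samples carry the word MLC3F, and the labels give no meaning for it, no promoter for the transgene and no age. Each sample was read on 1 single-colour Agilent array.

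Each synthetase recognises 1 amino acid and the tRNAs that carry it, and an uncharged tRNA stalls the ribosome. Cytosolic enzymes serve the ribosomes of the cytoplasm, and several of them are held in a multisynthetase complex by non-enzymatic scaffold proteins. Mitochondrial enzymes are made from separate nuclear genes, most of them named with a final 2, and are imported to translate the genes of mitochondrial DNA. The lysyl and glycyl enzymes (Kars, Gars) are exceptions, since a single gene supplies both compartments. Uncharged tRNA activates the kinase GCN2, after which the transcription factor ATF4 raises many amino acid enzymes and cytosolic synthetases through sites with the core TGATGNAA.

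Windows of 30 bases, 1 for each gene, show the core in its place near synthetase genes. The RefSeq promoter table for GRCm38.p6, with 250 bases before to 50 after each gene's start, held 27 of the 35 genes, 13 cytosolic and 14 mitochondrial. Nars, Wars, Hars, Vars, Lars, Cars, Rars and Pars2 were not among them. The windows are written 5′ to 3′ on the strand of the gene, with the core in capitals in either orientation.
Aars, chr8:111033840-111033869, core at 10: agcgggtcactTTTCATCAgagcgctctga
Iars, chr13:49682126-49682155, core at 8: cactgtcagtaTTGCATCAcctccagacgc
Yars, chr4:129189895-129189924, core at 4: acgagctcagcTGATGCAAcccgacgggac
Tars, chr15:11399655-11399684, core at −15: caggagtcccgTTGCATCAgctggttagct
Gars, chr6:55037960-55037989, core at −30: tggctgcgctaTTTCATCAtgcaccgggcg

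Positions are counted from the RefSeq start of the gene, and Tars lies on the minus strand of the chromosome. A gene was counted when any of its promoters held a match on either strand. The core TGATGNAA was found for 5 of 13 cytosolic genes (Aars, Iars, Yars, Tars and Gars) and for 0 of 14 mitochondrial ones. It was found for 4.51% of all 27025 genes with such promoters (3.97% of all 32851 promoters of this length). The E-box CACGTG, a site for factors such as MYC, was found for 4 of 13 cytosolic genes (Farsb, Aars, Iars, Tars). Among the mitochondrial genes it was found for 1 of 14 (Ears2), against 8.09% of all 27025 genes. Among these genes no matches of the 2 motifs overlapped. A match describes letters in the window and not binding.

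Signals are given as log2 of the processed intensity minus the array's 75th percentile of it, so that a difference of 1 is 2-fold. The 75th percentile was 341 to 356 on the Magic-F1 arrays and 275 to 292 on the control arrays, and 0 spots were saturated. Differences were tested with limma, p-values were adjusted by Benjamini and Hochberg's method over the 21190 probes tested (threshold 0.05), and each gene was read by the brightest of its tested probes. The series speaks of biological triplicates but names no animals or cultures, so p-values cover no more than the spread of these samples, possibly a technical one. Whole-sample RNA cannot tell fewer cells of a type from less RNA per cell. The groups differed widely: 89.0% of genes passed the test, 40.6% higher and 48.4% lower in Magic-F1. The labelled cell type was checked against marker lists. Of 9 tested satellite cell and muscle markers 0 rose and 9 fell, their summed linear level was 60.6 to 62.1 against 623 to 658 in the control, and Pax7 was well above background on 0 of the Magic-F1 arrays. All 13 macrophage markers rose, and their summed level was 1463 to 1524 against 106 to 109. All 8 adipocyte markers rose (725 to 764 against 146 to 149). All 8 tested neutrophil markers fell (0.275 to 0.289 against 583 to 629), but only 4 of them were well above background on all Magic-F1 arrays. The median change of the neutrophil list was −9.25, and −5.59 with normexp background. Of 10 proliferation markers 9 fell (128 to 136 against 223 to 235). A sum weighs the brightest genes most, and the median change of the proliferation list was −3.53. These lists move with the groups in every comparison that follows, and their part in the synthetase values was not tested.

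Most synthetase genes were lower on the Magic-F1 arrays. Of the 33 tested, 27 fell, 3 rose (Qars, Vars2 and Iars2) and 3 did not pass (Farsb, Tars2 and Aars2), beside 48.4% of all genes lower and 40.6% higher. With the arrays scaled on spiked-in transcripts the split was 18 lower and 6 higher, and that of all genes 35.7% lower and 51.5% higher. That scaling lifts the median change of all genes from −0.16 to 0.30, a shift of 0.45 that every gene shares, and median scaling moves it to −0.031. Relative to the median of all genes, 28 of the 33 lay lower and 5 higher, and this order does not depend on a scaling factor per array. The 2 groups did not overlap for 31 of the 33 genes, against 90.4% of all genes.

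Falls of at least 2-fold were found for 13 of the 33 genes (39.4%), against 28.7% of all genes. Rises of that size were found for 0 of the 33, against 24.0% of all genes. Through the probe that stands for each gene, the largest rise was 1.62-fold (Vars2) and the largest fall 10.97-fold (Nars2). The SD within a group of 3 arrays ran from 0.00075 to 0.25 over these genes on the log2 scale, with a median of 0.05.

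**Figure D1:**
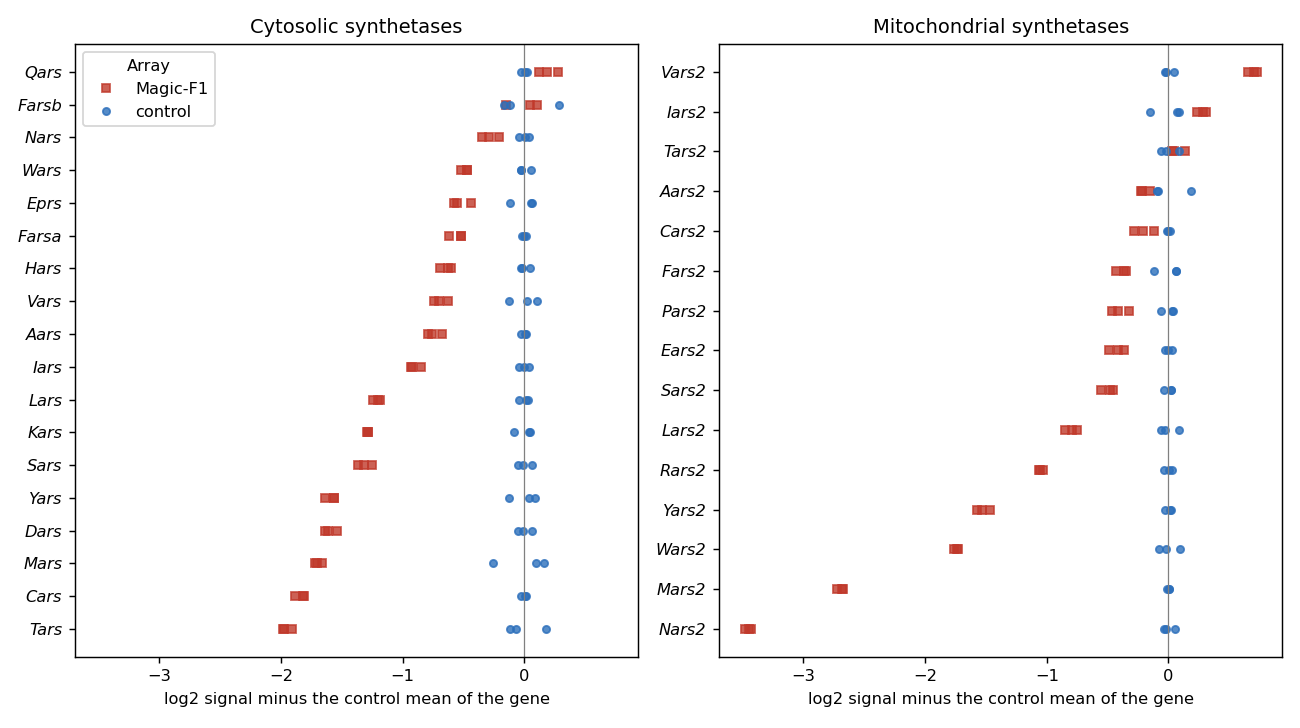
Signal of each tested synthetase gene on each array (x axis, log2 units, control mean of the gene at 0), with cytosolic enzymes left and mitochondrial enzymes right, ordered by change; squares are the 3 Magic-F1 arrays and circles the 3 control arrays. The Magic-F1 arrays lie below the control arrays for most genes, most of all for Nars2 (log2 change −3.46), and above them for Qars, Vars2 and Iars2. Spike-in scaling would move the mean of a gene's squares 0.45 to the right, by an amount that differs between arrays.

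Among the cytosolic enzymes 16 of 18 fell, 1 rose and 1 did not pass, beside 48.4% of all genes lower and 40.6% higher. Of the 18 enzymes, 8 fell by at least 2-fold (44.4%, against 28.7% of all genes). Their median change was −0.82, or −0.66 relative to the median of all genes. With spike-in scaling the change itself was −0.37. The value relative to all genes stays −0.66 by construction, since a scaling factor per array shifts all genes alike. The largest fall was that of Tars, which charges threonine and has the TGATGNAA core just before its start. Tars read −1.43, −1.44 and −1.37 on the Magic-F1 arrays and 0.48, 0.43 and 0.72 on the control arrays, a 3.88-fold fall (log2 −1.95, SE 0.09, adjusted p = 2.25e-06). The groups were far apart, and control replicate 3 was the highest of the 6. Cars, the cysteinyl enzyme, read 2.92, 2.99 and 2.99 against 4.78, 4.82 and 4.81, a 3.57-fold fall (log2 −1.84, SE 0.05, adjusted p = 2.07e-07). Its other tested probes changed by −1.72 and −1.30, in the same direction.

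The tyrosyl, aspartyl and methionyl enzymes fell about as far. Yars, one of the genes with a core at its start, read 2.46, 2.54 and 2.54 against 4.14, 4.19 and 3.98, a 3.01-fold fall (log2 −1.59, SE 0.07, adjusted p = 2.08e-06). Mars, which charges both the initiator and the elongator methionine tRNA, read 2.23, 2.27 and 2.21 against 4.10, 4.03 and 3.68, a 3.24-fold fall (log2 −1.69, SE 0.11, adjusted p = 1.66e-05). Control replicate 3 was the lowest control array for both genes and still lay above every Magic-F1 array. The signal of Mars rests here on 1 of 2 probes that changed alike, by −1.69 and −1.64.

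Sars, the seryl enzyme, read 6.21, 6.26 and 6.33 against 7.57, 7.53 and 7.64, a 2.48-fold fall (log2 −1.31, SE 0.06, adjusted p = 1.87e-06). Kars, which serves both compartments, read 3.03, 3.02 and 3.02 against 4.36, 4.36 and 4.23, a 2.44-fold fall (log2 −1.29, SE 0.05, adjusted p = 1.67e-06). Its Magic-F1 arrays were the closest of all the groups of 3 arrays in the set. Lars, the leucyl enzyme that also senses leucine for mTORC1, changed by −1.21 (SE 0.05, adjusted p = 1.15e-06), and its other probes by −1.35 and −1.10.

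The remaining cytosolic enzymes that fell did so by less than 2-fold. In order of size they were Iars for isoleucine (−0.90), Aars for alanine (−0.74), Vars for valine (−0.69), Hars for histidine (−0.64), Farsa, the catalytic subunit for phenylalanine (−0.55), Eprs, a fused enzyme for glutamate and proline (−0.52), Wars for tryptophan (−0.49) and Nars for asparagine (−0.28). Their adjusted p in limma ran from 5.56e-06 (Iars) to 0.0029 (Nars). With spike-in scaling Eprs, Farsa and Wars no longer passed and Nars stood at 0.17, and with median scaling Nars did not pass either (adjusted p = 0.0618). Aars and Iars, both with the core, thus showed smaller changes than Yars and Tars. The 8 cytosolic genes that fell by at least 2-fold included Yars and Tars of the 4 tested genes with it. Of the others, Mars, Dars, Sars and Kars were scanned without a match, and Cars and Lars were not scanned. A link between the core and the size of the change was not tested.

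Qars, the glutaminyl enzyme, was the cytosolic gene that rose. It read 5.52, 5.46 and 5.61 on the Magic-F1 arrays and 5.30, 5.35 and 5.34 on the control arrays, a 1.15-fold rise (log2 0.20, SE 0.05, adjusted p = 0.0144). The groups were close without overlap, and its second probe changed by 0.24. Without control replicate 1 the change was 0.18 and did not pass (adjusted p = 0.0534), and without the filter on dim probes Qars did not pass either (adjusted p = 0.064). Farsb, the other subunit of the phenylalanine enzyme, was dim and its groups overlapped, at −3.79, −3.85 and −4.05 against −4.07, −3.61 and −4.02 (log2 0.0022, SE 0.14, adjusted p = 0.989). With normexp background it changed by −0.13 and passed (adjusted p = 0.0339), and with spike-in scaling by 0.46 (adjusted p = 0.0245). Gars, the glycyl enzyme, was not well above background on any array through its single probe. Rars, the arginyl enzyme, was above background on 1 of 3 control arrays and on 0 Magic-F1 arrays, and neither gene was tested.

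Among the mitochondrial enzymes 11 of 15 fell, 2 rose and 2 did not pass, beside 48.4% of all genes lower and 40.6% higher. Of the 15 enzymes, 5 fell by at least 2-fold (33.3%, against 28.7% of all genes). Their median change was −0.42, or −0.26 relative to the median of all genes, and with spike-in scaling it was 0.030, so its sign depends on the scaling. The extremes were wider than in the cytosolic set on the side of the falls. Nars2, the mitochondrial asparaginyl enzyme, read −2.86, −2.81 and −2.83 on the Magic-F1 arrays and 0.60, 0.59 and 0.67 on the control arrays. This was a 10.97-fold fall (log2 −3.46, SE 0.05, adjusted p = 3.33e-08), with 4.09% of all tested genes below it. With normexp background, which raises dim signals, its change was −2.36. Mars2, the mitochondrial methionyl enzyme, read −1.55, −1.60 and −1.56 against 1.12, 1.13 and 1.13, a 6.48-fold fall (log2 −2.69, SE 0.04, adjusted p = 4.54e-08). Both genes were far apart between groups and tight within them.

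Wars2, for mitochondrial tryptophan, read −1.92, −1.95 and −1.91 against −0.088, −0.20 and −0.26, a 3.35-fold fall (log2 −1.74, SE 0.06, adjusted p = 6.87e-07), on 1 of 2 tested probes that moved in opposite directions. Yars2, for tyrosine, read 1.86, 1.75 and 1.79 against 3.29, 3.34 and 3.34, a 2.88-fold fall (log2 −1.52, SE 0.05, adjusted p = 5.63e-07). Its groups stood apart like those of cytosolic Yars. Rars2, for arginine, changed by −1.05 (SE 0.04, adjusted p = 1.56e-06). Lars2, for leucine, changed by −0.80 (SE 0.06, adjusted p = 2.53e-05), on a very bright probe that was not saturated. It read 9.39, 9.43 and 9.33 against 10.16, 10.27 and 10.12. The highest processed signal of this probe was 345013, against 5803 for the probe that stands for Tars2. Whether the probe reads Lars2 alone was not tested, and the leucine pair below rests on it too.

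Smaller falls were those of Sars2 for serine (−0.50), Ears2 for glutamate (−0.42), Pars2 for proline (−0.40), Fars2 for phenylalanine (−0.38) and Cars2 for cysteine (−0.20). Their adjusted p in limma ran from 0.000103 (Sars2) to 0.0124 (Cars2). Each of them depended on the scaling: with spike-in scaling Ears2 stood at 0.030, Pars2 at 0.053, Fars2 at 0.074 and Cars2 at 0.25, and Sars2 at −0.045 without passing. Aars2 for alanine (−0.20, SE 0.09, adjusted p = 0.0709) and Tars2 for threonine (0.068, SE 0.06, adjusted p = 0.315) did not pass. Tars2 passed with median scaling (0.20, adjusted p = 0.00827) and with spike-in scaling (0.52, adjusted p = 0.000491), and Aars2 passed with a variance trend in limma (adjusted p = 0.0463). Cars2 did not pass with median scaling (−0.076, adjusted p = 0.172) on slide 1 alone (−0.17, adjusted p = 0.101) or without the filter on dim probes (adjusted p = 0.0561).

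Vars2, the mitochondrial valyl enzyme, showed the largest rise among the probes that stand for the genes. It read 0.59, 0.64 and 0.66 on the Magic-F1 arrays and −0.014, −0.087 and −0.086 on the control arrays, a 1.62-fold rise (log2 0.69, SE 0.05, adjusted p = 1.69e-05). Its second probe changed by 0.62. Iars2, the mitochondrial isoleucyl enzyme, read 3.02, 3.06 and 3.09 against 2.87, 2.85 and 2.63, a 1.21-fold rise (log2 0.28, SE 0.08, adjusted p = 0.0142). Control replicate 3 was the lowest array, and with quantile normalization Iars2 did not pass (0.20, adjusted p = 0.0586), nor on slide 1 alone (0.31, adjusted p = 0.0565).

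The cytosolic median change lay 0.40 below the mitochondrial one (log2 −0.40). Read as each array's median deviation of the genes from their means over the 6 arrays, the cytosolic set stood at −0.40, −0.45 and −0.42 on the Magic-F1 arrays and at 0.41, 0.47 and 0.40 on the control arrays. The mitochondrial set stood at −0.27, −0.21 and −0.18 against 0.23, 0.25 and 0.27. The difference of both within an array, which a scaling factor per array cannot move, was −0.13, −0.23 and −0.24 against 0.18, 0.22 and 0.13, without overlap. Individual changes ran from −1.95 to 0.20 in the cytosolic set and from −3.46 to 0.69 in the mitochondrial set, so the sets overlapped over most of their range. Members are not replicates, and no test was made between the lists.

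Enzymes for the same amino acid were compared within arrays, as the log2 ratio of the cytosolic to the mitochondrial gene. For 12 of 15 pairs this ratio did not overlap between the groups, and the cytosolic partner was relatively lower in 9 and higher in 3. Single genes did not overlap in 90.4%, and no such share was computed for ratios of other gene pairs. Eprs and Fars2 recur among the pairs. With 3 arrays against 3, the smallest 2-sided p that an exact permutation test allows is 0.1, reached by these 12 pairs (0.125 after adjustment over the 15), so 0 pairs could pass at 0.05. The widest gap on the lower side was that of threonine, where Tars against Tars2 shifted by −2.02 (SE 0.05). Next came cysteine (Cars against Cars2, −1.63, SE 0.05), valine (Vars against Vars2, −1.38, SE 0.07) and isoleucine (Iars against Iars2, −1.18, SE 0.08). For valine and isoleucine the partners changed in opposite directions.

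Serine (−0.81), alanine (−0.54), leucine (−0.41), phenylalanine read by Farsa (−0.17) and proline (−0.12) had smaller shifts to the same side. Asparagine and methionine went the other way, and so did tryptophan through the probes that stand for its genes.
For asparagine, Nars against Nars2 shifted by 3.17 (SE 0.05), from −1.44, −1.48 and −1.48 on the control arrays to 1.80, 1.67 and 1.63 on the Magic-F1 arrays. For tryptophan the shift was 1.26 (SE 0.08) and for methionine 1.00 (SE 0.14). The direction for tryptophan depends on the probes, since as the mean of their probes Wars changed by −0.97 and Wars2 by −0.72. Glutamate (Eprs against Ears2, −0.098), tyrosine (−0.064) and phenylalanine read by Farsb (0.38) overlapped between the groups.

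**Figure D2:**
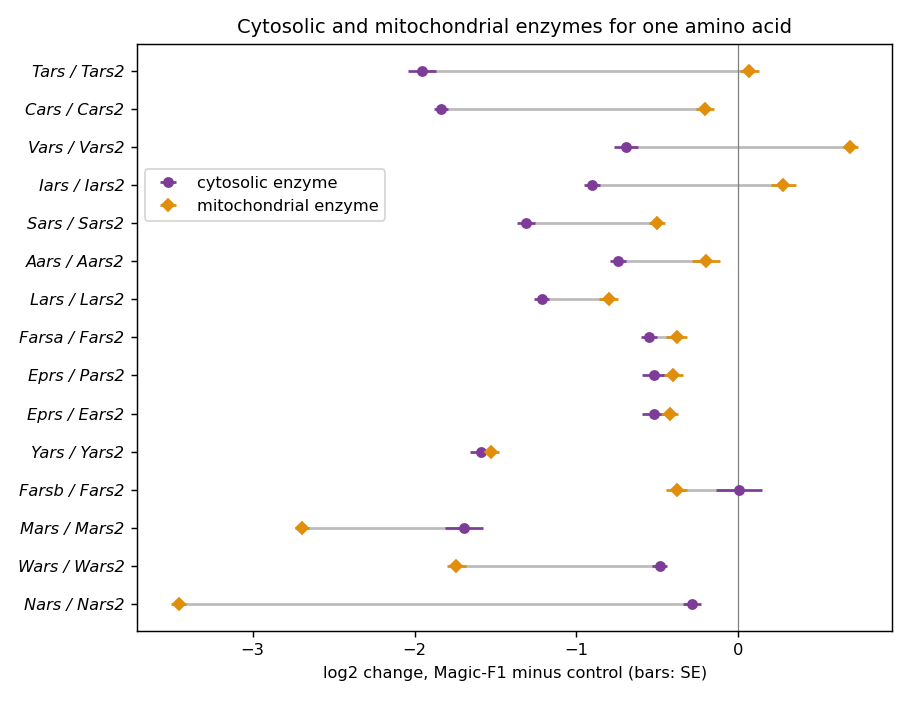
Change of the cytosolic enzyme (circle) and of the mitochondrial enzyme (diamond) for the same amino acid (x axis, log2 change, Magic-F1 minus control, bars SE, 3 arrays per group), with a grey line joining the 15 pairs. The gaps range from −2.02 for threonine to 3.17 for asparagine; a scaling factor per array moves both points of a pair together, and spike-in scaling moves all points 0.45 to the right.

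Several genes carry more than 1 tested probe, which shows whether the gene's value depends on the stretch of transcript read. Of 18 such genes, 13 had all probes in the same direction, among them Eprs, whose 4 probes changed by −0.52, −0.51, −0.52 and −0.38. In 3 genes (Dars, Farsa and Wars2) probes passed the test in opposite directions, and in Ears2 and Tars2 the probes differed in sign without both passing. The probe letters, as the array files give them with mm9 positions, show probes of Dars, Wars, Mars, Qars and Vars2 whose letters cross splice junctions. Those of Mars, Qars and Vars2 stand for the gene, while those of Dars and Wars are further probes and not the source of the gene's value.
Dars, chr1:130310284-130311944, minus strand: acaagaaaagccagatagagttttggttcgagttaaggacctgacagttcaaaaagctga
Wars, chr12:110104496-110105932, minus strand: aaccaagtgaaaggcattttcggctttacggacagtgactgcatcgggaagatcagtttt
Mars, chr10:126736485-126737031, minus strand: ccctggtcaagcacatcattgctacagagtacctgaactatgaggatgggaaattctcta
Qars, chr9:108417534-108418156, plus strand: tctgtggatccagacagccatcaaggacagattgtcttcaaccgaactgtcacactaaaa
Vars2, chr17:35793590-35793732, minus strand: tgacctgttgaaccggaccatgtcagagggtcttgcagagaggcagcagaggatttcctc

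Each of these probes has 60 bases but covers a longer stretch of the genome (143 to 1661 bases), so each crosses at least 1 splice junction of the gene. They therefore read spliced transcript.
Dars, the aspartyl enzyme of the complex, had the widest spread of all, 4.08 on the log2 scale. Its brightest probe, nearer the 3′ end, read 2.17, 2.07 and 2.10 against 3.70, 3.66 and 3.78 (log2 −1.60, SE 0.05, adjusted p = 7.56e-07). The probe printed above, nearer the 5′ end and assigned to the same transcript, read −1.64, −1.85 and −1.86 against 1.64, 1.55 and 1.79 (log2 −3.44, SE 0.09, adjusted p = 2.71e-07). Another probe, assigned to another transcript accession and placed at chr1:130308836-130308895, read −3.36, −3.38 and −3.12 against −3.81, −4.21 and −3.72 (log2 0.63, SE 0.15, adjusted p = 0.00637). The probes of Dars thus do not give a single value for the gene, while both probes of its first transcript fell.

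The probe of Wars2 that stands for the gene lies at chr3:99020906-99020965 and fell (log2 −1.74), and another at chr3:99023010-99023069 rose (log2 0.30, SE 0.07, adjusted p = 0.00595). The second read −1.49, −1.43 and −1.52 against −1.90, −1.75 and −1.69, without overlap. Farsa had 3 probes of its RefSeq transcript that fell by 0.55, 0.79 and 0.55, and 1 dimmer probe of a cDNA clone that rose by 0.50 (SE 0.19, adjusted p = 0.0476). Wars fell through both of its probes, by 0.49 at the brighter one and by 1.46 at the one printed above. A cDNA clone probe of Iars2 was not well above background in the control and was at least 1.55-fold higher in Magic-F1, where the gene's brighter probe rose 1.21-fold. As the mean of its probes, Ears2 changed by −0.083 and did not pass (adjusted p = 0.414).

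**Figure D3:**
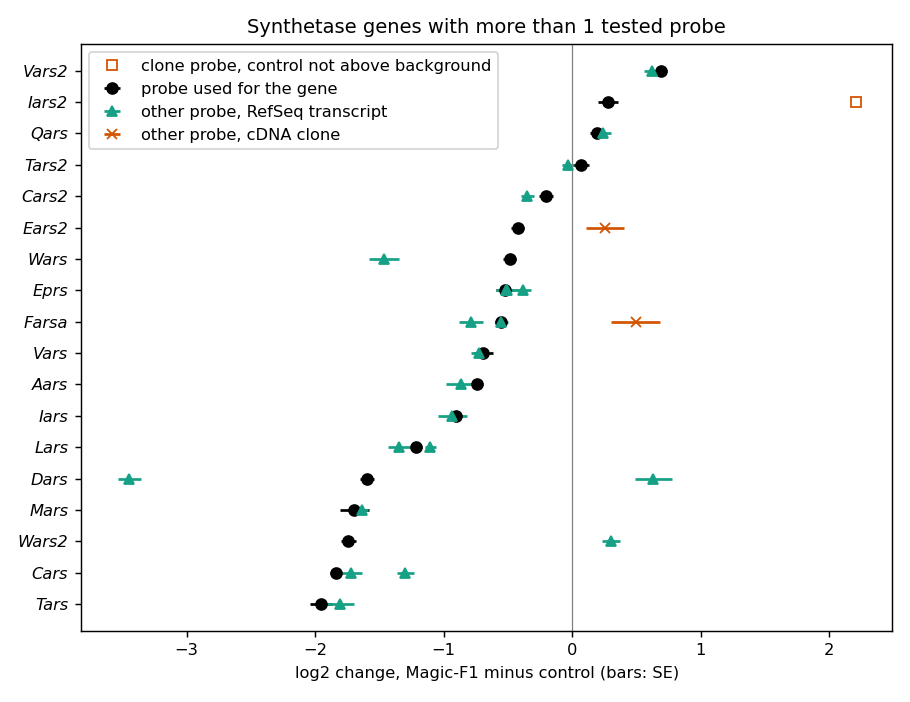
Change of every tested probe (x axis, log2 change, Magic-F1 minus control, bars SE, 3 arrays per group) in the 18 genes with more than 1 tested probe; black circles are the probes used for the gene, triangles other probes of RefSeq transcripts, crosses probes of cDNA clones and the open square a clone probe with a dim control. Points lie close together for most genes and apart for Dars (spread 4.08), Wars2 (2.04) and Farsa (1.28); the open square of Iars2 is a fitted value against a control not well above background, where the data give at least 1.55-fold; spike-in scaling moves all points 0.45 to the right.

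Grouped by fold and by complex, the genes gave these medians. Class I and class II synthetases have unrelated catalytic domains. The median change of 8 tested class I cytosolic genes was −1.06 and of 9 class II ones −0.74. Of 9 class I mitochondrial genes it was −0.80 and of 6 class II ones −0.39 (0.063 with spike-in scaling, the opposite sign). The 7 tested enzymes of the multisynthetase complex (Dars, Eprs, Iars, Kars, Lars, Mars and Qars) had a median of −1.21, with 6 fallen and 1 risen. The 11 other cytosolic enzymes had one of −0.69, with 10 fallen and 0 risen. These counts stand beside 48.4% of all genes lower and 40.6% higher.

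The scaffold genes of that complex showed larger falls than the median of the enzymes they hold. Aimp1 and Aimp2 are its core proteins, and Eef1e1 joins it as a small subunit. All 3 fell, beside 48.4% of all genes lower, with a median of −2.62. Aimp2 read −1.65, −1.71 and −1.52 on the Magic-F1 arrays and 1.24, 1.23 and 1.47 on the control arrays, a 7.67-fold fall (log2 −2.94, SE 0.09, adjusted p = 4.65e-07). Eef1e1 changed by −2.62 (SE 0.05, adjusted p = 6.71e-08) and Aimp1 by −1.76 (SE 0.07, adjusted p = 2.98e-07). The groups did not overlap for any of these genes, as for 90.4% of all genes, and the difference from the enzymes was not tested.

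Other genes that handle tRNA and its cargo were taken from lists. The counts of these and the later lists stand beside 48.4% of all genes lower and 40.6% higher. Of 14 genes of tRNA processing, export and mischarging control, 10 fell and 2 rose (median −0.55). The risen genes were Sephs2, which makes the selenium donor for selenocysteine (log2 1.46, SE 0.11, adjusted p = 3.54e-05), and Tarsl2, a paralogue of Tars (log2 0.80, SE 0.04). Sepsecs and Pstk, which act on the selenocysteine tRNA after serine has been attached, changed by −2.32 (SE 0.09) and −1.71 (SE 0.05). The change of Sepsecs was −1.56 with normexp background and −0.98 with the mean of its probes. Of 12 tested genes of mitochondrial tRNA charging and translation factors, 11 fell and 0 rose (median −0.65). Falls of at least 2-fold were found for 2 of them (16.7%, against 28.7% of all genes). The largest falls in this list were those of Gatc, a subunit of the amidotransferase that makes mitochondrial glutaminyl tRNA (log2 −1.60, SE 0.05), and of the recycling factor Mrrf (log2 −1.18, SE 0.06). As the mean of its probes, the change of Gatc was −0.13 and did not pass (adjusted p = 0.174).

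Of 6 cytosolic elongation factors, which bring charged tRNA to the ribosome and move it along, 4 fell and 1 rose (median −1.23). Eef1d and Eef1g, subunits of the exchange factor, changed by −1.54 (SE 0.07) and −1.51 (SE 0.06). Eef1a2, the muscle and neuron form of the factor that carries charged tRNA, was well above background on 0 control arrays. In the processed signal it was at least 42.5-fold higher in Magic-F1. Its fitted change was 6.26 and, with normexp background, 2.82 on the log2 scale, a smaller change than that bound, which holds for the processed signal only. The change of Eef1g was −0.86 with quantile normalization, and with the mean of probes Eef1d changed by −2.39 and Eef1g by −2.24.

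Atf4 and its listed targets, among them genes of amino acid supply, had a lower median change than the synthetase lists, a difference that was not tested. Of these 25 genes, 17 fell and 4 rose (median −1.69). Atf4 itself, named after its value was seen, read 1.58, 1.64 and 1.56 against 3.30, 3.31 and 3.24, a 3.23-fold fall (log2 −1.69, SE 0.05, adjusted p = 4.64e-08). Phgdh, the first enzyme of serine synthesis, fell 17.1-fold (log2 −4.10, SE 0.06, adjusted p = 5.13e-08). Slc7a3, a transporter of basic amino acids, changed by −4.48 (SE 1.21, adjusted p = 0.0125), with the control arrays at 0.68, 0.69 and −3.71 against −5.11, −5.30 and −5.37. Its control replicate 3 stood apart from the others, and without it the change was −5.94. With normexp background it was −2.34, and on slide 1 alone it did not pass (adjusted p = 0.0753). The largest rises were those of Sesn2, a leucine sensor (log2 0.93, SE 0.05), and of the transcription factor Cebpb (log2 0.90, SE 0.07).

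The list of kinases that act upstream of ATF4, with their substrate and subunits of the phosphatase that opposes them, had a positive median change. Of 7 genes, 5 rose and 1 fell (median 0.61). A phosphatase subunit was among the risen genes, and another did not pass. Eif2ak3, the kinase PERK of the endoplasmic reticulum, rose 4.97-fold (log2 2.31, SE 0.06, adjusted p = 3.09e-07). Eif2ak4, the kinase GCN2 that binds uncharged tRNA, rose 2.45-fold (log2 1.29, SE 0.04, adjusted p = 6.5e-07). Eif2s1, the initiation factor subunit they phosphorylate, fell 4.01-fold (SE 0.06 on the log2 scale, adjusted p = 4.65e-07). Of 11 tested interferon-induced genes, listed because interferon raises Wars, 5 fell and 3 rose (median −0.011), and the sign of that median changed in 7 of the alternatives.

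**Figure D4:**
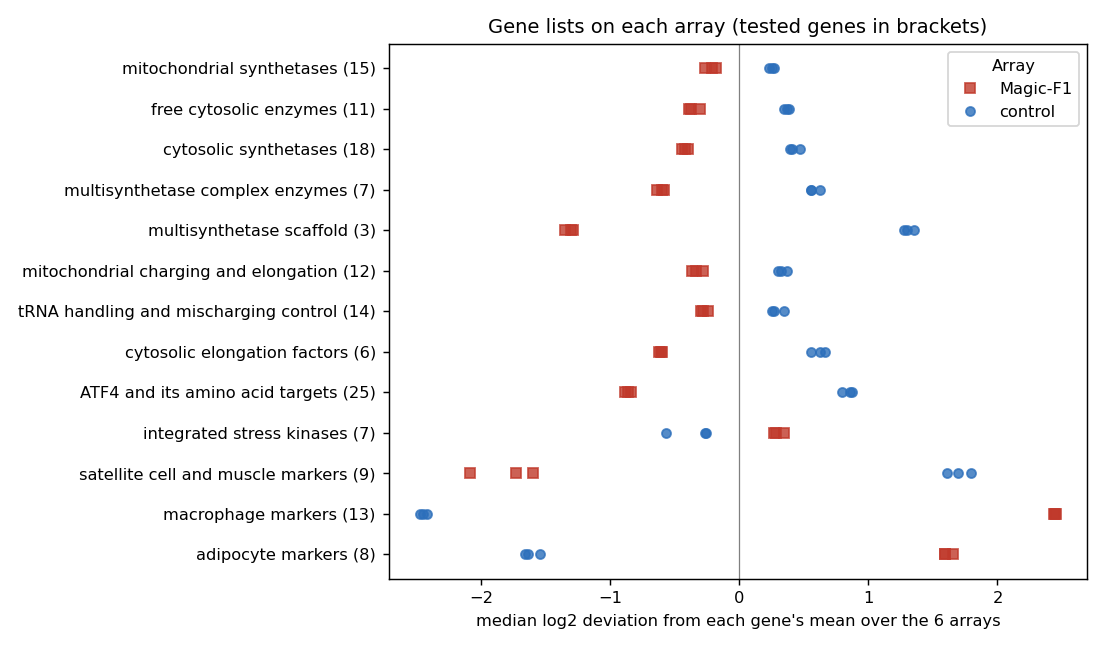
Median deviation of the tested genes of each list from their own mean over the 6 arrays (x axis, log2 units), with squares for the 3 Magic-F1 arrays and circles for the 3 control arrays, and the number of tested genes in brackets. The synthetase lists lie lower in Magic-F1 (cytosolic −0.45 to −0.40, mitochondrial −0.27 to −0.18, whose difference from control changes sign with spike-in scaling), the scaffold lower still, and the marker lists further apart than any synthetase list.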

How the data were processed

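The arrays (design 014868) were read with Agilent Feature Extraction 10.5.1.1, per the file headers. Per the same deposited headers the spot intensity used here is the background-subtracted processed signal, not normalized across arrays. A table of log2 values was deposited by the authors as well. It equals log2 of the processed signal (within 5e-09) for 4 arrays, and differs for both arrays numbered 1 (SD 0.456 for Magic-F1, 0.472 for control). How these were made is not given in the sources used. The medians of its columns were 3.53, 3.50 and 3.59 for Magic-F1 and 3.32, 3.35 and 3.40 for control, with no centring.

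From the scanner files, control spots were left out, outlier spots (59 to 89 per array) were set to missing, the 75th percentile of each array was subtracted from its log2 signals, and spots of a probe were averaged. Probes were named by RefSeq accession (25097 probes, GRCm38.p6) or by the file (16077). The test was limma's moderated linear model (version 3.58.1, R 4.3.3, 2-sided) with 1 term, the group. The steps were tested on simulated data. For "at least N-fold" the dim group's arrays were raised to the lowest signal found well above background on each array where the probe lay under it, and the group means were then compared. The number of arrays limits the precision.

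Bounds depend on the background correction. Every tested synthetase gene is named, with up to 2 passing genes of largest rise and fall from each other list discussed, except Aimp1, Atf4 and Pax7. Some items are not reported here. The genes and lists were chosen with earlier results of these data known. Replicates 1 and 3 of both groups shared slide 1, and replicate 2 of both slide 2. Alternatives covered background, scaling, filters, slide, replicate block, variance trend, the deposited table, the mean of probes and each array left out.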

Additional observations from a re-analysis of the deposited data

How the results depend on the processing

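Across 18 alternatives with a test, 19 of the 33 synthetase genes kept direction and call in each, and 565 of 594 gene values did so. The median change of the cytosolic genes was −0.69 with median scaling, −0.37 with spike-in scaling, −0.92 without a filter on dim probes, −0.95 with the mean of a gene's probes and −0.88 on slide 2 alone. The mitochondrial median was −0.30 with median scaling, −0.47 with quantile normalization and 0.030 with spike-in scaling, which lifts all changes alike. The cytosolic minus mitochondrial difference was −0.34 with quantile normalization, −0.50 without the filter and −0.54 with the mean of probes. Relative to the median of all genes, the cytosolic median stayed between −0.79 and −0.61 and the mitochondrial one between −0.35 and −0.17.

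With spike-in scaling 24 genes passed, 6 higher and 18 lower. The sign turned for Aars2 (0.26), Cars2 (0.25), Ears2 (0.030), Fars2 (0.074), Nars (0.17), Pars2 (0.053), the median of class II mitochondrial genes (0.063), that of all genes (0.30) and the median of interferon-induced genes (0.44). The last was also 0.039 with normexp background, 0.12 with median scaling, 0.000843 with probes above background on all arrays and 0.012 with the deposited table, and ran from −0.030 to 0.015 with 1 array left out (positive without Magic-F1 replicate 1 or control replicate 3). Farsb, near 0, turned to −0.13 with normexp and −0.11 with the deposited table, and ran from −0.082 to 0.15 with 1 array left out. The cause was not tested.

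Leaving out each array gave 29 to 30 genes called, 2 to 3 higher and 27 lower, a cytosolic median of −0.84 to −0.81, a mitochondrial one of −0.45 to −0.39, a difference of −0.44 to −0.38, and 12 to 14 pairs without overlap. On slide 1 alone 28 genes passed, and on slide 2 alone 32 of 33 had the same sign. Whether the replicate numbers pair the samples could not be decided from 3 arrays per group. Deviations from the group mean correlated at −0.0029, 0.108 and 0.0689 between samples of the same number. Samples of unlike number gave −0.1149 to 0.0484. With a replicate block 30 genes were called, 3 higher and 27 lower.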
